A study of Homo sapiens with 54 samples.

Results

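C/D box small nucleolar RNAs (snoRNAs) were followed in the human large cell lung carcinoma line NCI-H460 after radiation, cisplatin, nicotine and cigarette smoke extract. The members were the rows of the array table with exactly 1 gene symbol that began with SNORD, and 115 of 18417 genes met that rule, each with 1 row. Of these, 51 lay above the median gene in mean level and 64 below it, the dividing level being a log2 value of 7.04. A further 49 rows named a SNORD together with other genes and were not used here, so SNORD3A, SNORD118, SNORD22, SNORD47, SNORD76, SNORD27, SNORD36A and SNORD48 are not analysed here.

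The 54 arrays, each made from total RNA of 1 culture, fell into 18 groups of 3, and the labels call the 3 samples of a group biological replicates. After a day without serum, cells received nothing, nicotine at 5 uM, or smoke extract matched to 5 uM nicotine. Then, 2 h later, they received nothing, 6 Gy of ionizing radiation, or 1 uM cisplatin, a platinum drug that crosslinks DNA. Harvest came 2 h or 24 h later, so every combination of 3 pretreatments, 3 therapies and 2 times was measured. The cells came from 1 line without stroma or immune cells and all groups shared the serum withdrawal. The plate of each culture is not given in the labels. The p-values rest on 1 estimate of spread per gene, taken among the cultures within groups and pooled over the 18 groups. The spread within any 1 group is not judged by itself. A plate difference that ran along the groups cannot be told apart from the treatments.

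C/D box snoRNAs are short nuclear RNAs that carry the sequence boxes C and D and assemble with the methyltransferase fibrillarin and the proteins NOP56, NOP58 and SNU13. Most guide ribose methylation of ribosomal RNA (rRNA) or of the spliceosomal U6 RNA by base pairing, a few are needed for cutting the rRNA precursor, and the imprinted families SNORD113, SNORD114, SNORD115 and SNORD116 have no known rRNA target. In human cells most are cut out of introns of host genes, many of which encode ribosomal proteins or are long noncoding RNAs. Host genes of this kind often start with a cytidine followed by a run of pyrimidines, which places their transcripts among those translated in step with growth signals.

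The starts of noncoding host genes are shown because several of the members described here are cut from them. Each line gives 35 bases before and 15 bases from the RefSeq start of the host (assembly GRCh38.p14, the strand of the gene), with the run of C and T that opens the transcript with a C in capitals. SNHG19 lies on chromosome 16 (minus strand), SNHG32 on chromosome 6 (plus), SNHG5 on chromosome 6 (minus), ZFAS1 on chromosome 20 (plus), SNHG1 on chromosome 11 (minus) and GAS5 on chromosome 1 (minus).
SNHG19: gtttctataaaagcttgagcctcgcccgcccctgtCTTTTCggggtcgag
SNHG32: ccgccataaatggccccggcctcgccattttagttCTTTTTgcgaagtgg
SNHG5: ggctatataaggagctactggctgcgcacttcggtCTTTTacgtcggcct
ZFAS1: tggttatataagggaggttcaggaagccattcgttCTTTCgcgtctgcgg
SNHG1: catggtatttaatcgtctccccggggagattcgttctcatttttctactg
GAS5: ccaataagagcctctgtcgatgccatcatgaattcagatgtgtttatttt
With SNHG14, the host of the imprinted SNORD116 copies, left out, there were 8 noncoding hosts of members above the median gene. Of these, 7 had a RefSeq entry, and in 4 of these the annotated start was a C followed by at least 4 further C or T. The letters TATAA lying within the window from 40 to 20 bases before the start, searched on the strand of the gene, were found in 3 of the 7, and the same 3 (SNHG19, SNHG5 and ZFAS1) held both features. Among 35116 RefSeq promoters, 4.07% had the pyrimidine start, 3.77% had TATAA in that window and 0.0883% had both. A match describes letters in this window and marks no factor or use, and an annotated start can differ from the one used in these cells.

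Values are log2 values as deposited, errors of levels are SD over 3 arrays, and changes are differences of log2 means with the SE of 1 limma fit to the 54 arrays. A gene was called at a Benjamini-Hochberg adjusted p under 0.05 over the 18417 genes. The labels were checked on known target genes. MDM2, a p53 target, rose by 1.08 ± 0.06 with radiation at 24 h, and CYP1A1, an enzyme induced through the aryl hydrocarbon receptor, rose by 4.19 ± 0.08 with smoke extract. Keratins KRT8, KRT18 and KRT19 lay above the median gene, the epithelial genes EPCAM and CDH1 lay below it, and 0 of 4 leukocyte and 0 of 5 endothelial markers lay above it. COL1A1 was the 1 of 5 fibroblast markers above it. Arrays of 1 group correlated at 0.979 to 0.996, and the number of arrays limits the precision.

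Levels differed widely among the members. SNORD13, which takes part in maturation of the small-subunit rRNA and is transcribed from its own promoter, had the highest mean over the 54 arrays (12.37), followed by the pseudogene SNORD13P3 (12.2), SNORD33 (12.03) and SNORD116-15 (11.99). The last is one of the tandem copies in the imprinted Prader-Willi region of chromosome 15. The 20 SNORD115 copies had mean values from 1.46 to 3.76 and the 6 SNORD113 and SNORD114 copies from 2.32 to 3.57. Both ranges lay below the per-array mean of 453 olfactory receptor, taste receptor and keratin-associated genes, families that are silent in most tissues, which was 4.66 to 5.15. These 26 copies therefore gave no signal that could be told from background. The 20 SNORD116 copies, from the same noncoding host SNHG14 as SNORD115, spread from 4.19 to 11.99. Probes differ between rows, so these levels order rows and not amounts of RNA.

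At 2 h no averaged effect of an agent had a called member. Averaged over the backgrounds in which each agent was given, 0 of 115 members were called for radiation, cisplatin, smoke extract or nicotine, where 1.35%, 0.0109%, 9.28% and 0% of all genes were called in the same limma fit. At an unadjusted p under 0.05 the counts were 5, 11, 7 and 8 members. The share of all genes at that unadjusted cut is not given, here or below. Such counts are therefore not read as a result about the members. Smoke extract, which had already moved 9.28% of the genes, left the median of the 51 members above the median gene at a log2 change of 0.01. Radiation against cisplatin gave 0 members (1.03% of genes), with 8 at an unadjusted p under 0.05. In the contrast of smoke extract against nicotine 1 member was called, SNORD56B, whose mean of 3.96 lay below the silent families (-0.49 ± 0.16, adjusted p 0.0393 by limma), against 10.9% of genes, and the count ran from 0 to 2 when 1 array was left out.

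By 24 h radiation lowered most of the well-expressed members. Of the 115, 53 fell and 5 rose, while 16.6% of all genes fell, 15.9% rose and 32.5% were called in either direction. Among the 51 above the median gene 40 fell and 1 rose, a share of 78.4% lower, against 29.1% of the 9208 genes that lay above the median. The median change of those 51 was -0.43, and that of all genes was 0.03. The 64 members below the median gene had a median of -0.07, with 13 lower and 4 higher. Fewer cells with a given RNA and less of it per cell cannot be told apart in these bulk samples, nor can the finished snoRNA and the unspliced intron that holds it.

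Cisplatin lowered 33 of the 115 members and raised 1, where 3.22% of all genes fell, 1.81% rose and 5.03% were called in all. Among the 51, 26 fell (51%) and 1 rose, against 5.93% lower among all genes above the median, and their median was -0.33 against 0.02 over all genes. Radiation and cisplatin were compared with the same 9 therapy-free arrays, so their values are given side by side and not as independent results. The mean over the 51 members was 8.89 to 9.43 (median 9.17) in those 9 arrays at 24 h, 8.52 to 8.87 (median 8.75) in the 9 radiation arrays and 8.75 to 8.99 (median 8.87) in the 9 cisplatin arrays. The radiation arrays lay below all 9 therapy-free arrays, and the cisplatin arrays overlapped 1 of them, smoke extract replicate 3. At 2 h the same 3 sets had medians of 9.36, 9.4 and 9.42 and overlapped throughout.

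**Figure D1:**
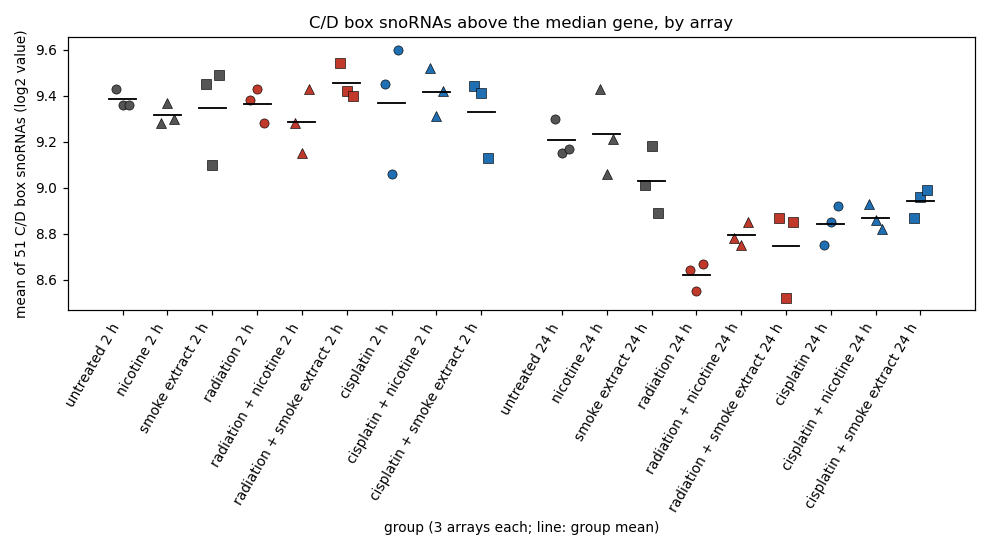
Mean log2 value of the 51 C/D box snoRNAs above the median gene in each of the 54 arrays (y axis), by group (x axis, 3 arrays each, line at the group mean); grey is no therapy, red radiation, blue cisplatin, circles no pretreatment, triangles nicotine, squares smoke extract. At 24 h the 9 radiation arrays sit between 8.52 and 8.87, below the 9 therapy-free arrays at 8.89 to 9.43.

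The mean of the silent families differed between groups too. Its medians over 9 arrays at 24 h were 4.88 without therapy, 5 with radiation and 5.01 with cisplatin, against 4.8, 4.82 and 4.83 at 2 h. Cisplatin groups at 24 h were not alike, with group means of 4.82 alone, 5.03 after nicotine and 5.06 after smoke extract. Without therapy the same 3 pretreatments gave 4.9, 4.92 and 4.91. With the silent-family mean as a covariate in the fit, 51 members were lower and 6 higher for radiation, and 33 lower and 3 higher for cisplatin. The median of the 51 was then -0.37 and -0.27. Without the 4 arrays farthest from their group in that mean, 60 and 37 members were called. The shares of all genes called in these alternative fits were not computed.

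The change in each therapy effect between the times was tested as well, a contrast chosen after seeing the data. The radiation effect was lower at 24 h than at 2 h in 41 members and higher in 2, where 23.4% of genes were called and 12.3% were lower. For cisplatin it was lower in 17 and higher in 0, where 1.03% of genes were called and 0.717% were lower. The smoke extract effect differed in 3 members (9.12% of genes) and the nicotine effect in 0 (0.0706% of genes).

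The largest falls with either therapy were in 2 guides of the large-subunit rRNA, SNORD35A and SNORD41. SNORD35A, cut from the ribosomal protein gene RPL13A, read 9.98, 10.14 and 10.28 in untreated cells at 24 h. It read 8.46, 8.34 and 8.84 after radiation and 8.81, 8.39 and 9.17 after cisplatin, so that neither therapy group reached the untreated arrays. Averaged over pretreatments it fell by 51.6% with radiation (log2 change -1.05 ± 0.12, adjusted p 4.25e-10 by limma) and by 45.5% with cisplatin (-0.88 ± 0.12, adjusted p 2.14e-06). SNORD41, from an intron of the nuclear import receptor gene TNPO2, read 11.3, 11.46 and 11.46 in untreated cells. Its values after radiation were 9.27, 9.56 and 10.26, and after cisplatin 9.78, 9.9 and 10.08. The averaged changes were -1.01 ± 0.15 and -0.98 ± 0.15, close to a halving with either agent.

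SNORD60 (host SNHG19) had values of 7.3 to 8.26 (median 8.09) in the 9 therapy-free arrays at 24 h. Radiation arrays ran from 6.43 to 7.6 (median 7.25) and cisplatin arrays from 7.09 to 7.42 (median 7.19), and the changes were -0.89 ± 0.14 and -0.73 ± 0.14. SNORD34, a second RPL13A member, had 7.74 to 8.76 (median 8.13) without therapy, 7.14 to 7.67 (median 7.33) with radiation and 7.48 to 8.1 (median 7.9) with cisplatin. Radiation arrays did not overlap those without therapy, and cisplatin arrays did. SNORD34 fell by 0.82 ± 0.11 on the log2 scale with radiation and by 0.42 ± 0.11 with cisplatin, and the latter call was lost without nicotine 24 h replicate 1 (adjusted p 0.0677 by limma). SNORD15A, from the ribosomal protein gene RPS3, had 7.58 to 8.06 (median 7.7) without therapy, 6.76 to 7.33 (median 6.98) with radiation and 7.19 to 7.58 (median 7.38) with cisplatin. SNORD15A changed by -0.68 ± 0.07 and -0.35 ± 0.07.

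SNORD14C, a copy of the U14 RNA needed for cutting the small-subunit rRNA precursor, read 10.48, 10.24 and 10.34 in untreated cells at 24 h. Radiation gave 9.36, 9.29 and 9.35 and cisplatin 9.82, 9.99 and 9.98, each below every untreated array. It fell by 43.8% with radiation (-0.83 ± 0.06, adjusted p 4.09e-15 by limma) and fell by 22% with cisplatin (-0.36 ± 0.06, adjusted p 0.000245). SNORD14E, another U14 copy from the same chaperone gene HSPA8, fell by 0.93 ± 0.12 with radiation, and its value with cisplatin was -0.36 ± 0.12 (not called, adjusted p 0.0786 by limma, and 0.00667 without the 4 arrays farthest in the silent-family mean). SNORD13 read 12.56, 12.58 and 12.71 in untreated cells, 11.64, 11.68 and 12.17 after radiation and 11.78, 11.81 and 12.09 after cisplatin. Its averaged changes were -0.45 ± 0.07 and -0.5 ± 0.07. SNORD33, a guide of the small-subunit rRNA from RPL13A, went from 12.25 ± 0.03 to 11.36 ± 0.19 after radiation and 11.45 ± 0.15 after cisplatin (SD, n = 3). The pseudogene SNORD13P3 followed SNORD13 closely in level, and with near-identical sequences the rows may share labelled cDNA. The same holds for the U14 copies and for the SNORD116 copies.

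**Figure D2:**
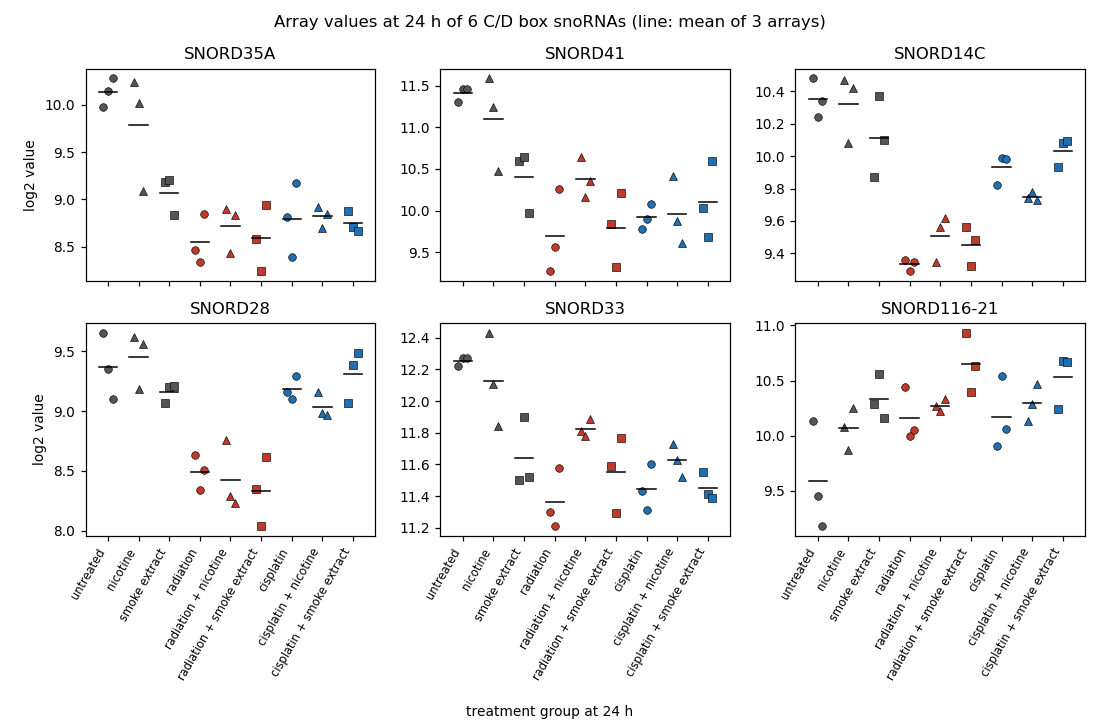
Log2 values (y axis) of 6 C/D box snoRNAs in the 27 arrays at 24 h, by treatment group (x axis, 3 arrays each, line at the mean); grey is no therapy, red radiation, blue cisplatin, circles no pretreatment, triangles nicotine, squares smoke extract. SNORD28 is low in the radiation groups alone, SNORD35A and SNORD41 in both therapies and after smoke extract, and SNORD116-21 runs the other way.

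SNORD94, which guides U6 methylation, fell by 0.46 ± 0.06 with radiation and by 0.33 ± 0.06 with cisplatin. The U6 guides SNORD7 and SNORD8, both below the median gene, changed by -0.22 ± 0.08 and -0.3 ± 0.08 with radiation and by -0.31 ± 0.08 and -0.34 ± 0.08 with cisplatin, all called. SNORD96A, a guide of a short rRNA of the large subunit, fell by 0.39 ± 0.08 with radiation, and with cisplatin its value was -0.06 ± 0.08 (not called).

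**Figure D3:**
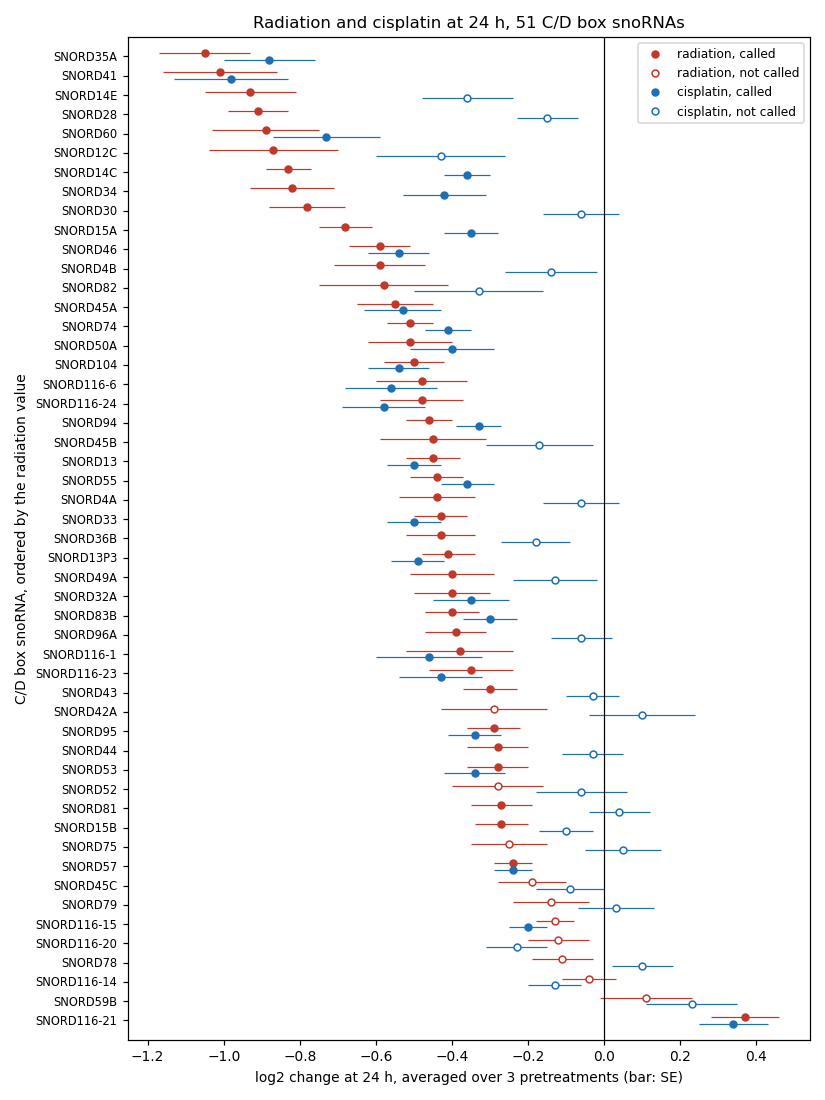
Log2 change at 24 h averaged over 3 pretreatments (x axis, bar: SE) of the 51 C/D box snoRNAs above the median gene (y axis), for radiation (red) and cisplatin (blue); filled points were called at an adjusted p under 0.05. Of the 51, 40 were called lower with radiation and 26 with cisplatin, and SNORD116-21 was the 1 called higher.

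Radiation and cisplatin parted at the host SNHG1. SNORD28, a guide of the small-subunit rRNA, and SNORD30, both from introns of this noncoding gene, fell by 46.7% and 41.9% with radiation and changed by -0.15 ± 0.08 and -0.06 ± 0.1 with cisplatin, where neither was called. SNORD28 read 8.63, 8.34 and 8.51 after radiation, 9.16, 9.1 and 9.29 after cisplatin and 9.65, 9.35 and 9.1 in untreated cells. The cisplatin arrays lay within the spread of the untreated ones. Tested directly, radiation left SNORD28 lower than cisplatin by a log2 difference of -0.76 ± 0.08 (95% interval -0.92 to -0.6, adjusted p 1.9e-10 by limma) and SNORD30 by -0.73 ± 0.1 (-0.93 to -0.53, adjusted p 8.38e-08). The U14 copies followed, at -0.57 ± 0.12 for SNORD14E and -0.47 ± 0.06 for SNORD14C. In all, 22 of the 115 members were lower with radiation than with cisplatin and 5 were higher, where 12.8% of all genes were lower, 11.3% were higher and 24.2% were called. Counted in either direction, the share of members called was thus close to that of all genes. All 22 lower members were outside the imprinted families and the pseudogenes, and the 5 higher ones were copies of SNORD115 or SNORD116. The SNORD115 copies lay at background level. SNORD35A, SNORD41, SNORD60, SNORD33 and SNORD13 were among the members not called in this contrast.

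Host by host, the 4 members in RPL13A (SNORD32A, SNORD33, SNORD34 and SNORD35A) fell with both agents, with medians of -0.63 and -0.46. The cisplatin call of SNORD32A (-0.35 ± 0.1) was lost without untreated 24 h replicate 3, nicotine 24 h replicate 1 or smoke extract 24 h replicate 2, with adjusted p up to 0.0677 by limma. The 3 in RPL23A had 2 falls with radiation and 0 with cisplatin, and the 3 in RPL3 had 3 and 1. The 7 members in GAS5, a noncoding gene of growth-arrested cells, moved less as a group, with 3 lower with radiation and 1 with cisplatin. Among all genes 16.6% were lower with radiation and 3.22% with cisplatin. SNORD74 fell by 0.51 ± 0.06 and 0.41 ± 0.06, SNORD44 and SNORD81 fell by 0.28 ± 0.08 and 0.27 ± 0.08 with radiation, and SNORD75, SNORD78 and SNORD79 ran from -0.25 to -0.11 (not called). SNORD77, the member of this host below the median gene, was not called with either therapy.

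The hosts with a pyrimidine start shown above did not share 1 pattern. SNORD12C, from ZFAS1, changed by -0.87 ± 0.17 with radiation and by -0.43 ± 0.17 with cisplatin (the latter not called), and its 3 cisplatin arrays of 8.23, 6.95 and 8.52 spread widely. SNORD50A, from SNHG5, changed by -0.51 ± 0.11 and -0.4 ± 0.11, both called, though the cisplatin call was lost in 7 of 18 fits without 1 array, with adjusted p up to 0.0987 by limma. SNORD52, from SNHG32, was called with neither therapy (-0.28 ± 0.12 and -0.06 ± 0.12). SNORD28 and SNORD30 came from SNHG1, whose annotated start has no such run.

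Grouped by the kind of host, and with the imprinted families and pseudogenes set aside, members of each kind had negative medians with radiation. Of 20 members in ribosomal protein genes 16 fell (median -0.43), of 25 in other coding genes 18 (median -0.37) and of 19 in noncoding genes 11 (median -0.28). With cisplatin the counts were 8, 10 and 5, with medians of -0.18, -0.24 and -0.11. The shares of all genes that fell were 16.6% with radiation and 3.22% with cisplatin. SNORD21, which overlaps both a ribosomal protein gene and another coding gene and was called with neither therapy, was counted with the other coding genes. Differences between the kinds of host were not tested.

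Some of the host messages changed as well. Of the 25 host genes of the 51 members, 14 had a row with 1 symbol, and with radiation 6 of these fell and 2 rose, with a median of -0.12. With cisplatin 2 fell and 1 rose, with a median of -0.04. Over all genes 16.6% fell with radiation and 3.22% with cisplatin. Among genes above the median gene these shares were higher, as given above for the 51 members. The host genes were not split by level. HSPA8 read 12.81, 12.76 and 12.69 in untreated cells and 12.53, 12.51 and 12.55 after radiation, with an averaged change of -0.18 ± 0.02, where its guests SNORD14E and SNORD14C changed by -0.93 and -0.83. NCL, the gene of the nucleolar protein nucleolin, fell by 0.43 ± 0.04 with radiation, the lowest value among the 14. RPS3 was at -0.13 ± 0.06 with either therapy (not called), and its guest SNORD15A fell by 0.68 and 0.35. RPL3 was at 0.04 ± 0.03 and -0.04 ± 0.03 (not called), and RPL7A rose by 0.17 ± 0.05 with radiation. ZFAS1 fell by 0.39 ± 0.09 with cisplatin and was at -0.14 ± 0.09 with radiation (not called), the reverse of the order in SNORD12C. The rows have different probes, so host and guest values stand side by side and their difference was not tested.

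**Figure D4:**
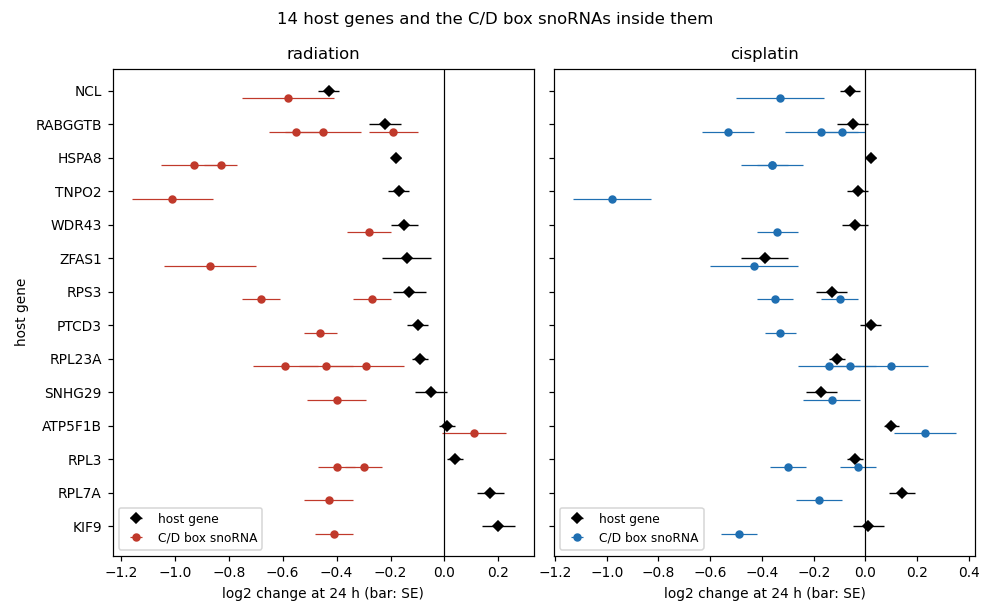
Log2 change at 24 h (x axis, bar: SE) of 14 host genes (black diamonds, y axis) and of the C/D box snoRNAs above the median gene inside them (coloured circles), for radiation (left) and cisplatin (right). With radiation the host genes run from -0.43 to 0.2, and most of the snoRNAs lie to the left of their host.

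The proteins that build and handle these RNAs were read from lists of related genes. Of the core proteins FBL, NOP58 and RRP9 were measured (NOP56 and SNU13 had no row with 1 symbol). FBL, the methyltransferase fibrillarin, fell by 0.34 ± 0.06 with radiation, NOP58 by 0.45 ± 0.07, and RRP9, which binds the U3 snoRNA, by 0.27 ± 0.05. With cisplatin 0 of the 3 were called (0.05 ± 0.06, -0.16 ± 0.07 and 0.06 ± 0.05). Of 15 assembly and transport genes 8 fell with radiation, led by the nucleolar chaperone NOLC1 (-0.5 ± 0.04), and 3 fell with cisplatin. Of 19 genes for trimming and decay of snoRNA ends 13 fell and 1 rose with radiation, and 2 fell with cisplatin. The exosome subunits EXOSC8 (-0.83 ± 0.07) and EXOSC9 (-0.55 ± 0.05) were among the former, and the exonuclease gene XRN1 was the 1 that rose (0.21 ± 0.07). Of 14 RNA polymerase I genes, whose enzyme makes the rRNA precursor, 8 fell with radiation and 1 with cisplatin, the latter being POLR1E (-0.27 ± 0.06). Beside these counts stand the 16.6% of all genes that fell with radiation and the 3.22% that fell with cisplatin. Both shares were higher among genes above the median gene, as given above, and the lists were not split by level. The medians of the 4 lists were -0.34, -0.17, -0.19 and -0.17 with radiation and 0.05, -0.06, -0.01 and -0.02 with cisplatin.

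The other class of guide RNAs, the H/ACA and Cajal body RNAs, which direct pseudouridylation, was set beside the C/D members. Of 77 such RNAs 49 fell with radiation and 32 with cisplatin, and 0 rose with either. Of all genes, 16.6% fell and 15.9% rose with radiation, and 3.22% fell and 1.81% rose with cisplatin. Those 40 above the median gene had medians of -0.45 and -0.41, close to the -0.43 and -0.33 of the 51 C/D members. The difference between the classes was not tested.

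Calls among the SNORD116 copies went in both directions. SNORD116-10, SNORD116-16 and SNORD116-18 had means of 4.19, 4.2 and 4.38, below every per-array mean of the silent families. Signal in these copies could not be told from background. With radiation 5 of 20 fell and 3 rose, where 16.6% of all genes fell and 15.9% rose. The share of copies that rose with radiation was thus close to that of all genes. With cisplatin 8 fell and 1 rose, where 3.22% of all genes fell and 1.81% rose. SNORD116-24, one of the well-expressed copies, read 10.41, 10.29 and 10.29 in untreated cells at 24 h, 9.18, 9.05 and 9.52 after radiation and 8.97, 9.4 and 9.32 after cisplatin. Its averaged changes were -0.48 ± 0.11 and -0.58 ± 0.11. SNORD116-6 changed by -0.48 ± 0.12 and -0.56 ± 0.12, and SNORD116-1 by -0.38 ± 0.14 and -0.46 ± 0.14. The calls of SNORD116-1 were lost in 7 and 12 of 18 fits without 1 array, with adjusted p up to 0.12 in both, and without the 4 arrays farthest in the silent-family mean its radiation value was -0.2 (adjusted p 0.322). SNORD116-11, below the median gene, fell by 0.68 ± 0.11 and 0.75 ± 0.11.

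SNORD116-21 went the other way. It read 10.13, 9.45 and 9.18 in untreated cells, 10.44, 10 and 10.05 after radiation, 9.91, 10.54 and 10.06 after cisplatin and 10.29, 10.56 and 10.16 after smoke extract. The smoke extract arrays lay above the untreated ones, and the other two overlapped them through untreated replicate 1. The averaged changes were 0.37 ± 0.09 with radiation, 0.34 ± 0.09 with cisplatin and 0.53 ± 0.09 with smoke extract (adjusted p 0.00125, 0.0222 and 1.23e-05 by limma). The cisplatin call was lost in 7 of 18 fits without 1 array (adjusted p up to 0.098). Between 2 h and 24 h SNORD116-21 rose in 7 of 9 treatments, by up to 1.14 ± 0.16 with cisplatin and smoke extract, and its value in untreated cells was -0.04 ± 0.16. The 3 pseudogenes had 1 fall with each therapy, SNORD13P3. In the SNORD115 family 2 of 20 copies were called higher with radiation at background level, and in SNORD113 and SNORD114 0 of 6 were called with any of the 4 agents, and 1 of 6 was called higher at 24 h than at 2 h, all at background level.

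**Figure D5:**
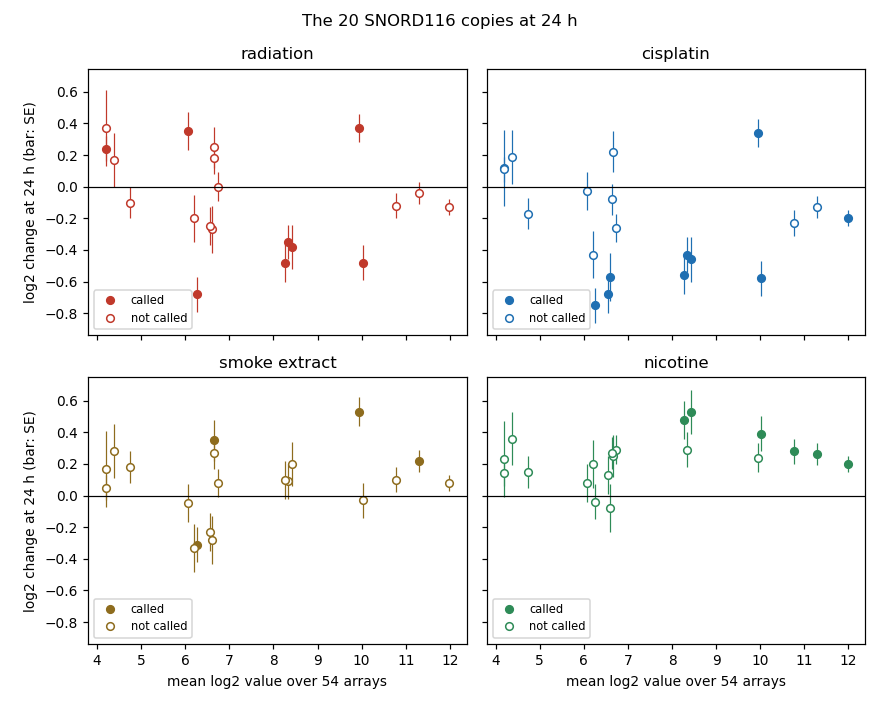
Log2 change at 24 h (y axis, bar: SE) of the 20 SNORD116 copies against their mean log2 value over 54 arrays (x axis), for radiation, cisplatin, smoke extract and nicotine; filled points were called at an adjusted p under 0.05. With nicotine 18 of 20 copies lie above 0 and 6 were called higher, and in the therapy panels both directions occur. Rows of the copies may share labelled cDNA, so the points are not independent.

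Nicotine, averaged over therapies, raised 6 members at 24 h and lowered 1, where 0.782% of all genes rose, 4.43% fell and 5.21% were called. All 6 were SNORD116 copies: SNORD116-1 (0.53 ± 0.14), SNORD116-6 (0.48 ± 0.12), SNORD116-24 (0.39 ± 0.11), SNORD116-20 (0.28 ± 0.08), SNORD116-14 (0.26 ± 0.07) and SNORD116-15 (0.2 ± 0.05). The family median was 0.24, with 18 of 20 copies above 0, and the median of all genes was 0. Rows of these copies may share labelled cDNA and were read on the same arrays, so the copies are not separate observations. SNORD30 was the member that fell (-0.35 ± 0.1). Leaving out 1 array ended the call of SNORD116-20 in 12, of SNORD116-24 in 9, of SNORD30 in 7, of SNORD116-1 in 6 and of SNORD116-6 and SNORD116-14 in 1 of 18 fits, with adjusted p up to 0.12 by limma. With no therapy or with radiation in the background nicotine gave 0 calls among members (8 and 18 at an unadjusted p under 0.05, 0.00543% of genes called in each). With cisplatin it gave 5 higher and 10 lower (17.8% of genes called, 9.56% lower). In SNORD116-1 the values with cisplatin were 7.26, 8.3 and 7.49 alone and 8.58, 8.39 and 8.32 after nicotine, so the groups did not overlap.
The count for nicotine at 24 h rests on few arrays. It was 7 in the fit of all arrays, 0 when the 27 arrays at 24 h were fitted alone, and 1 to 13 when 1 array was left out. The count was 1 without radiation + nicotine replicate 2 or cisplatin replicate 3, 2 without untreated replicate 3 or radiation + nicotine replicate 3, and 3 without nicotine replicate 2 or cisplatin replicate 1. It was 12 without nicotine replicate 3, and 13 without radiation + nicotine replicate 1 or cisplatin replicate 2, all at 24 h. The count of 15 for nicotine with cisplatin was 1 with the 27 arrays alone, 0 with the silent-family mean as a covariate, 6 with all rows of the table in the adjustment and 0 to 22 when 1 array was left out.

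Smoke extract, averaged over therapies, changed few members relative to its reach. At 24 h 5 rose and 5 fell (8.7% of the 115), where 27.7% of all genes were called (11.9% higher, 15.7% lower), and the median of the 51 was 0.04. SNORD42A, a small-subunit guide from RPL23A, rose by 0.57 ± 0.14, and SNORD4B from the same gene by 0.34 ± 0.12. SNORD35A (-0.35 ± 0.12), SNORD12C (-0.45 ± 0.17), SNORD30 (-0.34 ± 0.1), SNORD53 (-0.29 ± 0.08) and SNORD116-11 (-0.31 ± 0.11) fell. Leaving out 1 array ended the calls of SNORD35A, SNORD12C and SNORD4B in 4, 8 and 7 of 18 fits, with adjusted p up to 0.0704, 0.151 and 0.135 by limma. The count of members was 6 without radiation replicate 3, without radiation + smoke extract replicate 1 or 2, or without cisplatin replicate 3, and 17 without radiation + smoke extract replicate 3, all at 24 h. It was 21, with 2 lower and 19 higher, with the silent-family mean as a covariate. The share of all genes called with that covariate was not computed, so whether the shift was particular to the members was not tested. In that fit SNORD12C and SNORD35A were both at -0.24 and no longer called (adjusted p 0.204 and 0.0958 by limma).

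That average joined backgrounds that differed. Without therapy smoke extract lowered 12 members and raised 3 at 24 h (16.1% of genes called, 7.4% lower), and the median of the 51 was -0.2. SNORD35A read 9.18, 9.2 and 8.83 after smoke extract, below all 3 untreated arrays, a change of -1.06 ± 0.2. SNORD41 was at 10.59, 10.64 and 9.97 against 11.3, 11.46 and 11.46 (-1.01 ± 0.25), and SNORD12C at 7.38, 7.66 and 6.96 against 8.7, 8.26 and 8.25 (-1.07 ± 0.29). Added to radiation smoke extract lowered 0 and raised 2 members (8.23% of genes called, 5.68% lower), and added to cisplatin it lowered 4 and raised 6 (28.6% of genes called, 14.1% lower), with medians of 0.15 and 0.12. When 1 array was left out the count with radiation ran from 0 to 2, at 0 without radiation 24 h replicate 2. The count with cisplatin was 1 without cisplatin replicate 3 or cisplatin + smoke extract replicate 1, 4 without cisplatin + smoke extract replicate 3, 5 without cisplatin replicate 1 and 18 without cisplatin replicate 2, all at 24 h. Against nicotine, smoke extract had 10 members lower and 4 higher at 24 h (20.6% of genes called, 8.34% lower and 12.3% higher), among them SNORD13 (-0.26 ± 0.07), SNORD33 (-0.31 ± 0.07) and SNORD116-24 (-0.43 ± 0.11).

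Seen from the therapies, the falls were largest in number in cells without pretreatment. Radiation lowered 38 members and raised 2 there (21% of genes called, 11% lower), with a median of -0.58 for the 51. After nicotine it lowered 26 (15.3% of genes, 6.66% lower), with a median of -0.4, and after smoke extract 11 (14.2% of genes, 9.96% lower), with a median of -0.27. Cisplatin lowered 25 and raised 2 without pretreatment (3.8% of genes, 1.65% lower, median -0.39), lowered 8 after nicotine (0.451% of genes, 0.282% lower, median -0.42) and gave 0 calls after smoke extract (0.0814% of genes, 0.076% lower, median -0.08, with 12 members at an unadjusted p under 0.05). The comparisons within a pretreatment share their 3 reference arrays. After nicotine the counts rested on single arrays, running from 10 to 29 for radiation and from 0 to 21 for cisplatin, lowest without nicotine 24 h replicate 1. After smoke extract the radiation count ran from 6 without smoke extract 24 h replicate 2 to 21 without radiation + smoke extract 24 h replicate 3.

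Whether the therapy effect depended on the pretreatment was tested with an interaction F test. It called 2 of 115 members at 24 h, SNORD13P3 (adjusted p 0.0319 by limma) and SNORD33 (adjusted p 0.0483), where 1.22% of all genes were called, and 0 at 2 h, where 0% were called. SNORD33 read 12.22, 12.27 and 12.27 in untreated cells and 11.3, 11.21 and 11.58 after radiation, a change of -0.89 ± 0.13. After nicotine it read 12.43, 12.11 and 11.84, and 11.81, 11.78 and 11.89 when radiation followed, a value of -0.3 ± 0.13 (not called). After smoke extract it read 11.5, 11.9 and 11.52, and 11.59, 11.29 and 11.77 when radiation followed, a value of -0.09 ± 0.13 (not called). The smoke extract arrays were thus low before any therapy was added. SNORD13P3 had radiation values of -0.86 ± 0.12, -0.37 ± 0.12 and 0.01 ± 0.12 in the same order, the first and the second called. SNORD116-24 (adjusted p 0.0827) and SNORD55 (adjusted p 0.0878) came next and were not called. SNORD13, whose row may share labelled cDNA with that of SNORD13P3, was not called (adjusted p 0.176 by the same F test). The share of members called at 24 h was close to that of all genes. The interaction count ran from 0 to 9 when 1 array was left out, with 8 without nicotine 24 h replicate 3, 9 without radiation 24 h replicate 3 and 4 without cisplatin 24 h replicate 2. It was 0 without untreated replicate 1 or 3, smoke extract replicate 1 or 3, radiation replicate 1 or 2, or radiation + smoke extract replicate 1, all at 24 h.

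Levels also fell with time. Averaged over the 9 treatments, 71 of 115 members were lower at 24 h than at 2 h and 6 were higher, where 27.8% of all genes were lower, 41.4% were higher and 69.2% were called. Of the 51 above the median gene 46 were lower (90.2%, against 45.8% of all genes above the median), with a median of -0.41. SNORD12C changed most, by -1.59 ± 0.1, a fall of 66.7%, followed by SNORD41 (-1.25 ± 0.08), SNORD35A (-1.19 ± 0.07), SNORD60 (-0.96 ± 0.08), SNORD45B (-0.92 ± 0.08) and SNORD34 (-0.88 ± 0.06). For the single treatments that follow, percentages are of genes called in either direction. A count of members that were lower is therefore not a like measure. In untreated cells 1 member was called, SNORD50B (-0.69 ± 0.19, adjusted p 0.0445 by limma), against 1.92% of genes, and the median of the 51 was -0.16. With nicotine 1 member was higher and 0 lower (7.24% of genes, median -0.08), and with smoke extract 25 were lower and 2 higher (26.2% of genes, median -0.33). With radiation 56 were lower (34.8% of genes, median -0.68), with radiation after nicotine 43 (32.8%, -0.43) and with radiation after smoke extract 55 (34.9%, -0.65). With cisplatin 37 were lower (11.1% of genes, median -0.51), after nicotine 52 (37.6%, -0.49) and after smoke extract 33 (29.9%, -0.4). Differences between these 9 sets beyond the contrasts given above were not tested.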

How the data were processed

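RNA of 54 NCI-H460 cultures was read on 54 Affymetrix whole-transcript arrays, 1 each. Affymetrix Power Tools 1.15.0 is named in the submitters' processing notes, and how probes were summarized and normalized is not stated there or in the labels. Deposited values are taken as log2 from their range (0.89 to 13.81, array medians 6.43 to 6.63), and the log base is not stated. Probes were named by GEO's platform annotation: of 33297 rows, 19460 had 1 gene symbol, 1754 several and 12083 none, and the row with the highest mean stood for a gene.

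Group means of all 54 arrays were fitted in limma 3.58.1 (R 4.3.3, eBayes with trend, 36 residual df, two-sided) and adjusted by Benjamini-Hochberg over 18417 genes. An averaged effect weights its 3 backgrounds equally. The script was tested on simulated data. Members and lists were chosen with earlier results of these data known. Named were the 6 lowest and 4 highest called members above the median gene per averaged effect, up to 6 by interaction and a list of well-studied members; others, named for host or family, were chosen after their values were seen. Alternatives were quantile normalization, no trend, all rows, genes above the median, 27 arrays, a background covariate, a replicate block, all rows averaged per symbol, and leaving out arrays.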

Additional observations from a re-analysis of the deposited data

Results flagged for a closer look

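The therapy effect differed between pretreatments at 24 h in SNORD13P3 (adjusted p 0.0319, limma interaction F test) and SNORD33 (adjusted p 0.0483), with no call in either when the 27 arrays at 24 h were fitted alone. In the fit of all arrays 1.22% of all genes were called for this interaction, close to the share of members. The averaged effects also differed between 24 h and 2 h, by a test of the difference in the same fit, in 43 members for radiation (23.4% of all genes), 17 for cisplatin (1.03% of all genes) and 3 for smoke extract, a smaller share than the 9.12% of all genes.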

How the results depend on the processing

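Single members were followed under the alternatives only if named by averaged effect or as well studied. The effects followed were those of each agent at 24 h and of time. SNORD33, SNORD74, SNORD94 and SNORD116-11, for example, were not followed. Among the members followed no called value changed sign. Some of their values that were not called crossed 0 when 1 array was left out. Among these members, 24 calls were lost and 8 gained over the alternatives that kept all replicates or left out the 4 arrays. With those settings the radiation count at 24 h lay between 43 and 61 and the cisplatin count between 28 and 37. Shares of all genes called were not computed for the alternatives, so the counts below have no such share beside them. Counts that moved by over 1.5 times were as follows, the cause not tested. With 27 arrays the count became 0 for nicotine at 24 h, 0 for the interaction at 24 h, 2 for smoke extract against nicotine, 3 for smoke extract and 1 for radiation against cisplatin at 2 h. With the covariate it became 11 for nicotine, 21 for smoke extract and 14 for the interaction at 24 h, and at 2 h 4 for smoke extract against nicotine, 3 for smoke extract, 1 for radiation and 1 for radiation against cisplatin. Without the 4 arrays, an alternative chosen after seeing the data, it became 16 for smoke extract and 9 for smoke extract against nicotine at 24 h, and at 2 h 2 for smoke extract, 2 for smoke extract against nicotine, 1 for radiation and 1 for radiation against cisplatin. With genes above the median it became 11 for nicotine, 47 for time and 0 for smoke extract against nicotine at 2 h. With all rows the interaction at 24 h and smoke extract against nicotine at 2 h gave 0, and without the trend they gave 0 and 2. Leaving out 1 array gave 75 to 79 members for time, 52 to 64 for radiation, 27 to 37 for cisplatin, 6 to 17 for smoke extract, 1 to 13 for nicotine, 0 to 9 for the interaction, 10 to 21 for smoke extract against nicotine and 21 to 30 for radiation against cisplatin at 24 h. At 2 h it gave 0 to 2 for smoke extract and for smoke extract against nicotine, 0 to 1 for radiation and 0 for the others.

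Replicate numbers did not pair the samples: deviations of same-numbered arrays had a median correlation of 0.016, and 23 of 54 arrays correlated best with their own number. With the replicate number as a block, 61 members were called for radiation, 34 for cisplatin, 11 for smoke extract, 9 for nicotine, 77 for time and 2 for the interaction at 24 h, and at 2 h 1 for radiation and 2 for smoke extract against nicotine. No array lay more than 3 robust SDs out, so the fit without such arrays was not run. Signal near background limits the 64 members below the median gene.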
